A study of Danio rerio with 12 samples.

Results

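Of the proteins that zebrafish mitochondria make from their own genome, 5 belong to respiratory complexes III, IV and V and had values here: cytochrome b (mt-cyb), subunits 1, 2 and 3 of cytochrome c oxidase (mt-co1, mt-co2, mt-co3) and ATP synthase subunit 6 (mt-atp6). They were taken by gene name from a table of 32520 genes in which 400 held values in all 12 libraries, and each name matched 1 row. RNA came from cardiac tissue of Danio rerio at 4 and 12 months post-fertilization (mpf), from the line Tg(myl7:ATF3) and from wild-type siblings of the same ages, with 3 biological replicates in each of the 4 groups. The line overexpresses ATF3, a stress-induced transcription factor, from the myl7 promoter, which is active in heart muscle cells. The labels give no background strain, sex or number of hearts per library. The design asks which effects of ATF3 are early and which come with age.

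Complex III passes electrons from ubiquinol to cytochrome c, complex IV passes them on to oxygen, and both pump protons across the inner mitochondrial membrane. Complex V lets the protons back and makes ATP with the energy released, which heart muscle uses at a high rate. Each of these complexes joins a few subunits encoded in the mitochondrial genome to many encoded in the nucleus. The mitochondrial genome is transcribed from both strands into long precursors, which are processed into separate RNAs, often at the tRNA genes that lie between the protein genes.

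All 5 genes lie on the plus strand of the mitochondrial chromosome (MT, build GRCz11). The gene mt-co1 (ENSDARG00000063905) runs from 6425 to 7975, and mt-co2 (ENSDARG00000063908) from 8130 to 8820. The gene mt-atp6 (ENSDARG00000063911) runs from 9052 to 9735, mt-co3 (ENSDARG00000063912) from 9735 to 10520 and mt-cyb (ENSDARG00000063924) from 15308 to 16448. The genes mt-atp6 and mt-co3 share 1 base, and mt-atp6 shares 7 bases with mt-atp8, another complex V gene of the same strand, which was not analysed here. No annotated gene of the minus strand overlaps any of the 5. The nearest minus-strand genes are tRNA genes, 1 base before and directly after mt-co1 and 6 bases before mt-cyb.

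The values were FPKM, fragments per kilobase of gene length after scaling each library, from 3′-end libraries in which first-strand synthesis is primed with oligo-dT. Reads recovered from the values came to 2223 to 21864 per library for the 5 genes together, and 1667 to 20785 of them belonged to mt-co1. The other 4 genes had 10 to 572 reads in a library, and intervals from these reads cover counting error only. The libraries of 4 mpf stood apart from those of 12 mpf. Cytosolic rRNA took 82.7% to 90.4% of the recovered reads at 4 mpf and 18.0% to 41.3% at 12 mpf, and 46 to 193 of the 400 genes were listed at 0 at 4 mpf against 3 to 9 at 12 mpf. In the same order, mt-nd6, a complex I gene and the sole protein gene of the minus strand, took 3.49% to 10.5% and 37.1% to 55.1%. Spearman correlations between replicates of a group were 0.48 to 0.63 at 4 mpf and 0.80 to 0.88 at 12 mpf. Age and these properties of the libraries cannot be told apart. Of the 10 heart muscle markers listed for a check of the tissue, 9 occurred among the 32520 genes. None of these markers had values, and neither did atf3 or myl7, so tissue and genotype labels were not checked here. Of the marker lists for other cell types, hemgn of erythrocytes, itih2 of liver and cldni of epithelia alone had values.

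The core subunit of complex III, mt-cyb, which carries the b-type haems of that complex, varied least over the 12 libraries of the 5 genes, from 413 to 1111 FPKM. Its FPKM values were 877, 656 and 640 in wild-type hearts and 890, 602 and 413 in transgenic hearts at 4 mpf. The 12 mpf values were 1111, 705 and 515 for wild-type and 771, 803 and 493 for transgenic hearts. All 4 groups overlapped, and the highest value of a group was 1.37 to 2.16 times its lowest.

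The catalytic subunit of complex IV, mt-co1, which carries the site where oxygen is reduced, had the highest level of the 5 in 12 of 12 libraries. At 4 mpf its FPKM values were 23456, 9682 and 8044 for wild-type hearts and 4919, 18619 and 3640 for transgenic hearts. At 12 mpf the wild-type values were 8700, 3869 and 5074 and the transgenic values 4735, 3548 and 2105. The wild-type replicate 1 and the transgenic replicate 2 of 4 mpf lay far above the rest, with 20785 and 17922 reads. The groups overlapped at both ages, and the coefficient of variation between replicates was 38.0% to 91.7%, against 1.03% to 2.07% for counting error.

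Subunit 2 of complex IV, mt-co2, which takes up electrons from cytochrome c, showed the clearest gap between genotypes at 4 mpf. Its FPKM values there were 1031, 466 and 633 in wild-type hearts and 271, 399 and 127 in transgenic hearts, so that every transgenic library lay below every wild-type library. The genotypes were likewise separate for 12% of the 400 genes at 4 mpf, and mt-co2 did not pass the test. The genotypes overlapped at 12 mpf, where wild-type hearts had 922, 628 and 283 and transgenic hearts 438, 394 and 300.

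Subunit 3 of complex IV, mt-co3, a membrane subunit, had the lowest level of the 5 in 10 of 12 libraries. Its FPKM values at 4 mpf were 154, 186 and 267 in wild-type hearts and 23.3, 344 and 58.6 in transgenic hearts. The lowest of these rests on 10 reads (95% Poisson interval 4.80 to 18.4 reads), and the transgenic replicate 2, with 168 reads, lay above all wild-type libraries. The genotypes did not overlap at 12 mpf, where wild-type hearts had 309, 195 and 176 and transgenic hearts 150, 120 and 110. They were likewise separate for 20% of the 400 genes at that age, and mt-co3 did not pass the test.

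The complex V gene mt-atp6 codes for the membrane subunit that forms the proton path. Its FPKM values at 4 mpf were 79.3, 431 and 593 in wild-type hearts and 185, 203 and 276 in transgenic hearts. By 12 mpf wild-type hearts had 1088, 399 and 449 and transgenic hearts 1086, 520 and 341. The genotypes overlapped at both ages, and the wild-type replicate 1 of 4 mpf, which was highest in mt-co1, was lowest in mt-atp6, with 31 reads. That library also had the most genes at 0 of the 12 libraries, 193 of the 400.

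**Figure D1:**
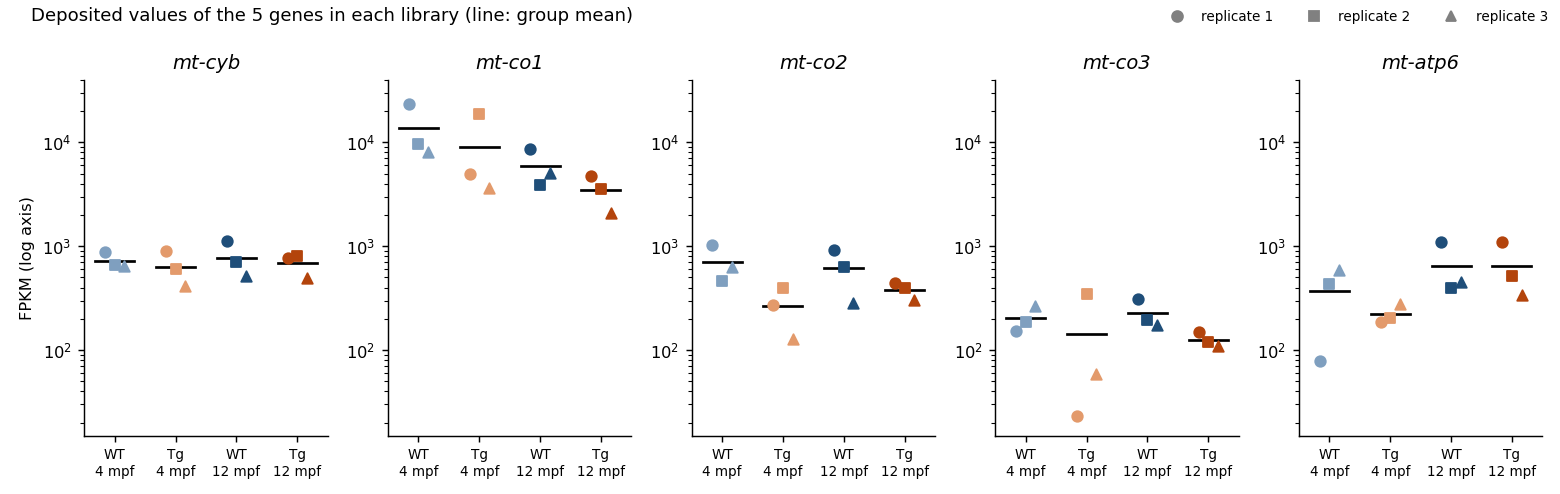
FPKM on a log axis for each of the 5 genes, with 1 point for each of the 12 libraries by group and a line at each group's mean (n = 3). The mt-co1 points of 4 mpf spread from 3640 to 23456, and the mt-cyb points of all groups lie between 413 and 1111.

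Ordered by mean FPKM over the 12 libraries, mt-co1 came first with 8033, followed by mt-cyb with 706, mt-co2 with 491, mt-atp6 with 471 and mt-co3 with 174. Among the 400 genes these means ranked 5, 18, 25, 27 and 50. Neighbours in this order were compared within libraries by an exact sign-flip permutation test of the log2 ratio (two-sided, 12 libraries, 4 tests, Benjamini-Hochberg adjusted). The order itself came from the same 12 libraries, so the p-values do not allow for this choice of pairs. The level of mt-co1 was 9.20-fold that of mt-cyb and higher in 12 of 12 libraries (permutation adjusted p = 0.00195). The level of mt-cyb was 1.60-fold that of mt-co2 and higher in 11 of 12 (permutation adjusted p = 0.00488). Levels of mt-co2 and mt-atp6 did not differ beyond their spread, with a ratio of 1.13, mt-co2 higher in 6 of 12 and a permutation adjusted p of 0.738. Their order differed by age, since mt-co2 was the higher in 5 of 6 libraries at 4 mpf and in 1 of 6 at 12 mpf. The level of mt-atp6 was 2.62-fold that of mt-co3 and higher in 10 of 12 (permutation adjusted p = 0.00586). The same 3 steps passed on reads not divided by length, with permutation adjusted p from 0.000977 to 0.0150. On those reads mt-co1 was 12.5-fold mt-cyb, mt-cyb was 2.64-fold mt-co2 and higher in 12 of 12 libraries, and mt-atp6 was 2.28-fold mt-co3. How far priming with oligo-dT or reads of the opposite strand enter these ratios between genes was not tested.

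In transgenic against wild-type hearts at 4 mpf, none of the 5 genes passed the test, although all 5 estimates were below 0 as deposited. On the log2(FPKM + 1) scale mt-co2 differed by -1.49 (SE 0.52, 95% interval -2.62 to -0.35), and its adjusted p was 0.184 by limma over 400 genes (unadjusted p = 0.0149). The difference of mt-co3 was -1.32 (interval -2.99 to 0.36, limma adjusted p = 0.457) and that of mt-co1 was -0.82 (interval -2.17 to 0.54, limma adjusted p = 0.499). For mt-atp6 and mt-cyb the differences were -0.32 and -0.24, with intervals on both sides of 0. The median over the 5 genes was -0.82 and that over all 400 genes was 0.25, with 174 of the 400 below 0. Even for a gene that passed, fewer cells of a type and less RNA per cell could not be told apart in this bulk tissue.

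Over all genes, 13 of 400 (3.25%) were called at 4 mpf, meaning an adjusted p under 0.05, and limma voom on the recovered reads also called none of the 5. Groups did not overlap for 1 of the 5 genes, mt-co2, and for 12% of the 400. Without transgenic replicate 2, the library in which mt-co3 was highest, mt-co3 was called at -2.38 (limma adjusted p = 0.0280). Without that library and wild-type replicate 1, both chosen after their mt-co1 values were seen, it was called at -2.56 (limma adjusted p = 0.0214). Without transgenic replicate 1, which held 10 mt-co3 reads, the difference was -0.47. The mt-co1 difference was -0.35 without wild-type replicate 1, -0.35 without transgenic replicate 3, -0.34 with array weights and -1.53 without transgenic replicate 2, and was called in none of these. The sign of mt-cyb turned without transgenic replicate 3 (0.03) and under scaling to the nuclear genes other than rRNA (0.01), and that of mt-atp6 turned without wild-type replicate 3 (0.23) or 2 (0.0026).

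At 12 mpf again none of the 5 genes passed, and every limma adjusted p in the joint fit was 0.999. The fit shares 1 spread per gene over all 12 libraries, so the p-values and intervals also hold the spread of 4 mpf. On the log2 scale the SD of mt-co3 was 0.40 in wild-type and 1.95 in transgenic hearts at 4 mpf. At 12 mpf it was 0.43 and 0.23. With the 6 libraries of 12 mpf alone the limma adjusted p of mt-co3 was 0.379, and with array weights 0.316. The differences were -0.81 for mt-co3 (interval -2.48 to 0.87), -0.76 for mt-co1 (-2.11 to 0.60) and -0.55 for mt-co2 (-1.69 to 0.59). They were -0.13 for mt-cyb and -0.01 for mt-atp6, and both turned above 0 without wild-type replicate 1 (0.16 and 0.45) or transgenic replicate 3 (0.092 and 0.37), and mt-atp6 also without transgenic replicate 2 (0.069). The mt-co1 difference was -0.43 without wild-type replicate 1 and -0.44 without transgenic replicate 3. That of mt-co2 was -0.18 without wild-type replicate 1 and -1.03 without wild-type replicate 3. The median over the 5 was -0.55 and over all genes 0.07, with 186 of 400 below 0. The test called 0 of 400 genes (0%), and limma voom 0. An unadjusted p under 0.05 was reached by 13 genes, none of the 5 among them. The 12 mpf groups were separate for 1 of the 5 genes, mt-co3, and for 20% of the 400.

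Over both ages the estimates were -1.06 for mt-co3 (SE 0.54), -1.02 for mt-co2 (SE 0.37), -0.79 for mt-co1 (SE 0.44), -0.19 for mt-cyb and -0.17 for mt-atp6. Their limma adjusted p-values ran from 0.303 for mt-co2 to 0.930 for mt-atp6, none of the 5 was called by limma or limma voom, and 4 of 400 genes (1%) were. The unadjusted p of mt-co2 was 0.0174. The mt-atp6 estimate turned above 0 without wild-type replicate 3 of 4 mpf (0.11), wild-type replicate 1 of 12 mpf (0.061) or transgenic replicate 3 of 12 mpf (0.024). Leaving out both 4 mpf libraries highest in mt-co1 brought mt-co3 to -1.68, which was called (limma adjusted p = 0.0399), and leaving out transgenic replicate 1 of 4 mpf brought it to -0.64. The test of the difference between the effects at both ages called none of the 5 (limma adjusted p 0.872 to 0.993, none under an unadjusted p of 0.05) and 2 of 400 genes (0.5%). The intervals of that difference were wide, from -0.68 to 2.54 for mt-co2 and from -1.86 to 1.98 for mt-co1.

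The 7 mitochondrially encoded genes of complex I, the dehydrogenase at the start of the chain, give the nearest comparison. At 4 mpf 5 of 7 had estimates below 0 in transgenic hearts, with a median of -0.55, and at 12 mpf 6 of 7, with a median of -0.33. None of them was called between genotypes. Among them mt-nd4 differed by -1.33 (limma adjusted p = 0.234) and mt-nd5 by -1.01 (limma adjusted p = 0.221) at 4 mpf. The difference between both gene groups was not tested. The nuclear partners could hardly be followed. Of the 180 listed names of nuclear genes for the respiratory chain, ATP synthase and mitochondrial gene expression, 140 occurred among the 32520 genes and 3 had values. These were atp5f1e of complex V and ndufa3 and ndufb2 of complex I, none was called between genotypes, and each was listed at 0 in at least 1 library of 4 mpf.

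**Figure D2:**
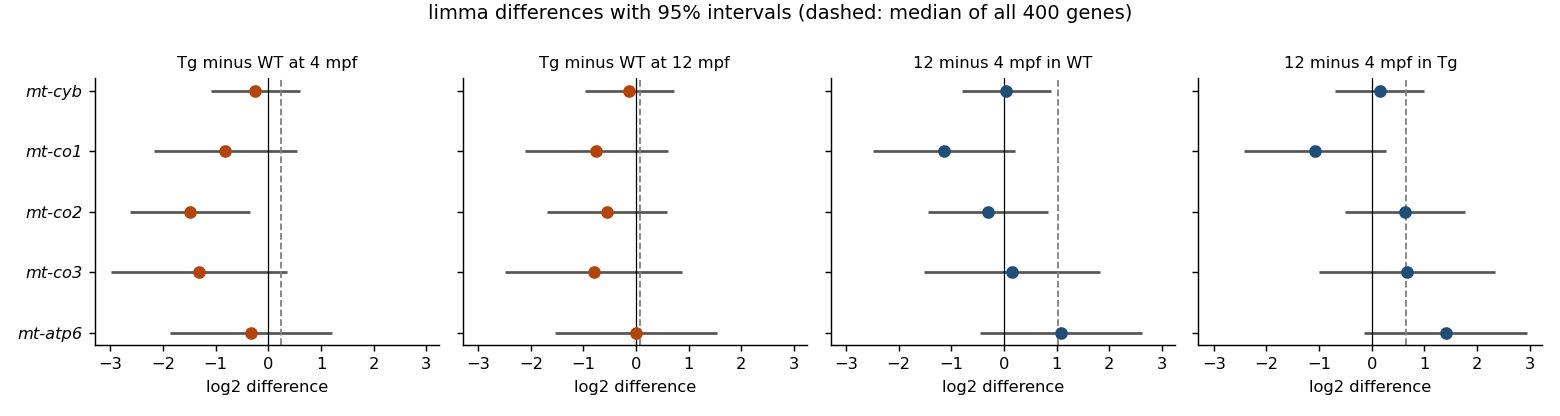
Differences on the log2(FPKM + 1) scale for the 5 genes (points) with 95% intervals from limma, for transgenic minus wild-type at each age and for 12 minus 4 mpf in each genotype; the dashed line is the median of all 400 genes. All 5 points lie below 0 between genotypes at both ages as deposited, with mt-cyb at 0.01 at 4 mpf under scaling to the nuclear genes, and only the mt-co2 interval at 4 mpf lies wholly below 0.

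From 4 to 12 mpf none of the 5 genes passed the test in either genotype. The estimate for mt-co1 was below 0 in both, at -1.14 in wild-type (SE 0.62, limma adjusted p = 0.307) and -1.08 in transgenic hearts (SE 0.62, limma adjusted p = 0.372). That for mt-atp6 was above 0 in both, at 1.08 (SE 0.71, limma adjusted p = 0.386) and 1.40 (SE 0.71, limma adjusted p = 0.294). Without wild-type replicate 1 of 4 mpf the wild-type estimates were -0.67 for mt-co1 and 0.20 for mt-atp6, and without transgenic replicate 2 of 4 mpf the transgenic estimate for mt-co1 was -0.37. For mt-atp6 in wild-type hearts the estimate was 0.63 without replicate 1 of 12 mpf and 1.64 without replicate 3 of 4 mpf. Scaling to the nuclear genes other than rRNA gave mt-atp6 0.64 and 0.59, and mt-co1 -1.90 in transgenic hearts. The estimates for mt-cyb were 0.04 and 0.15, those for mt-co2 were -0.30 and 0.64, and those for mt-co3 were 0.16 and 0.67. These 3 genes turned sign in at least 1 genotype under scaling to the nuclear genes, which moved the median of all genes by -0.36 in wild-type and by -0.64 in transgenic hearts. The median over the 5 genes was 0.04 in wild-type and 0.64 in transgenic hearts, beside 1.03 and 0.64 over all genes.

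With age, 16 of 400 genes (4%) were called in wild-type and 14 of 400 (3.5%) in transgenic hearts, and neither limma nor limma voom called any of the 5. None of the 5 had an unadjusted p under 0.05 in either genotype. In wild-type hearts the ages overlapped for all 5 genes, while they were separate for 24.2% of the 400. In transgenic hearts they were separate for mt-atp6 alone, with every 12 mpf library above every 4 mpf library, and for 33.5% of the 400.

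The composition of the 5 genes' values was compared as each gene's share of their summed FPKM, which does not depend on the scaling of a library. The strand setting of the counting was not stated, and how far reads of the opposite strand enter these shares was not tested. The rRNA content of the libraries also differed between the ages, and cannot be told apart from age in these shares. Wild-type hearts had mt-co1 shares of 91.6%, 84.8% and 79.0% at 4 mpf and of 71.7%, 66.8% and 78.1% at 12 mpf. Those of transgenic hearts were 78.2%, 92.3% and 80.6% at 4 mpf, then 66.0%, 65.9% and 62.9% at 12 mpf. All 6 libraries of 12 mpf lay below all 6 of 4 mpf, though the closest pair differed by little.

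The mt-co1 share fell from 84.4% ± 6.27 at 4 mpf to 68.5% ± 5.49 at 12 mpf (SD, n = 6 each). This difference of -15.9 percentage points had an exact permutation p of 0.005, the smallest that 400 relabellings within genotype allow, and an adjusted p of 0.025 over 10 share tests. It was -13.0 points in wild-type and -18.8 points in transgenic hearts. The 4 other shares make up the rest, so that they are not independent of it. The mt-atp6 share rose from 3.33% ± 2.40 to 9.62% ± 3.03, with no overlap between ages (permutation adjusted p = 0.025, n = 6 each). Shares of mt-co2 rose from 3.90% ± 1.45 to 7.53% ± 2.24 and of mt-co3 from 1.37% ± 0.820 to 2.70% ± 0.528 (permutation adjusted p = 0.0375 and 0.0333, n = 6 each). The mt-cyb share was 6.96% ± 4.17 and 11.6% ± 2.87, with a permutation adjusted p of 0.05 (n = 6 each), which is not under the threshold.

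Whether these shares passed changed when single libraries were left out, while the direction of all 5 stayed in each of the alternatives run. Permutations of fewer libraries have less power by construction, so losing the threshold does not by itself show a smaller difference. Without wild-type replicate 1 of 4 mpf, or replicate 1 or 2 of wild-type 12 mpf, none of the 5 shares passed, and mt-co1 had differences of -14.3, -15.8 and -14.5 points with a permutation adjusted p of 0.05 each time. Leaving out transgenic replicate 3 of 12 mpf kept 2 of the shares under the threshold. Leaving out both 4 mpf libraries highest in mt-co1 kept none, with a mt-co1 difference of -12.1 points (permutation adjusted p = 0.05). On shares of reads all 5 passed, with a mt-co1 difference of -10.7 points. Between genotypes no share passed (permutation adjusted p 0.125 to 0.405, none at an unadjusted p under 0.05), apart from mt-cyb without transgenic replicate 2 of 4 mpf, at 5.11 points higher in transgenic hearts (permutation adjusted p = 0.025).

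**Figure D3:**
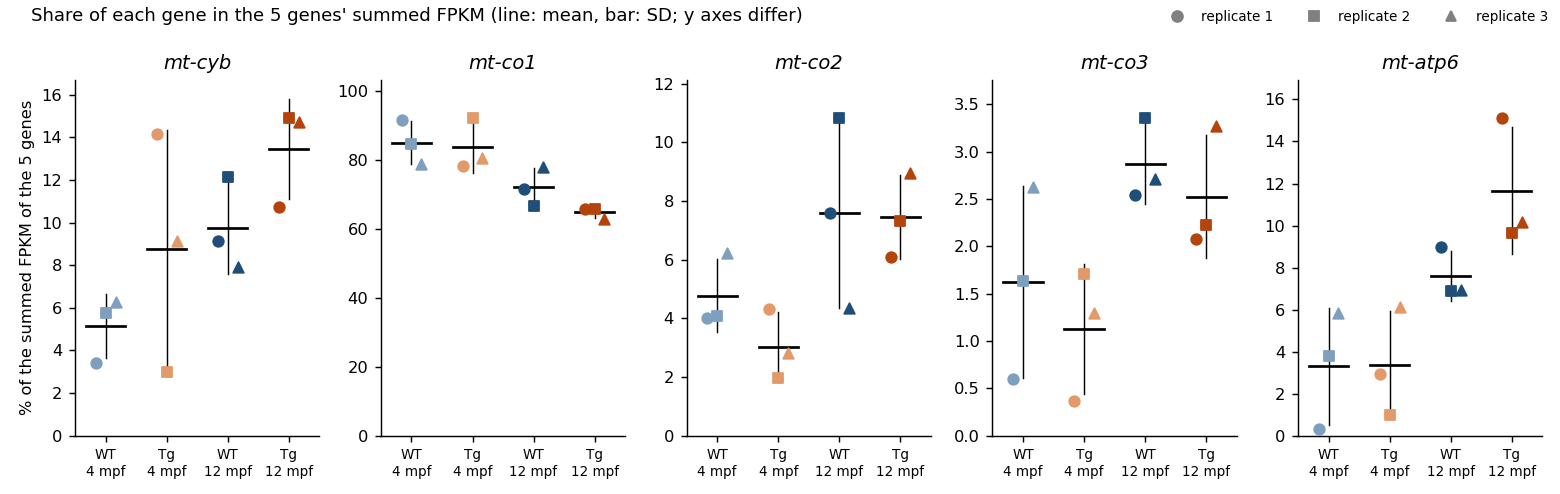
Share of each gene in the 5 genes' summed FPKM (percent, axes from 0 that differ between panels) for each of the 12 libraries, with the group mean and SD (n = 3). The mt-co1 shares of 12 mpf lie between 62.9% and 78.1% and those of 4 mpf between 78.2% and 92.3%.

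The levels were also set beside mt-nd6, as a description with no test, because mt-nd6 was picked after its own change with age was seen. From 4 to 12 mpf mt-nd6 differed by 1.21 in wild-type (limma adjusted p = 0.109) and by 1.62 in transgenic hearts (limma adjusted p = 0.0468) on the log2 scale. A lower ratio to mt-nd6 at 12 mpf thus holds the change of mt-nd6 along with that of the other gene. The mean log2 ratio to mt-nd6 was -4.08 ± 1.07 at 4 mpf and -6.61 ± 0.393 at 12 mpf for mt-co1 (SD, n = 6 each). For mt-atp6 it was -9.32 ± 0.801 and -9.49 ± 0.361. Whether reads were counted by strand is not stated in the labels, so that reads of mt-nd6 and of RNA from the opposite strand cannot be told apart, and the same holds for the 5 genes.

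The order of the genes along the plus strand is mt-co1, mt-co2, mt-atp6, mt-co3 and, farther on, mt-cyb. Mean FPKM at 4 mpf, in that order, was 11393, 488, 294, 172 and 680. Means at 12 mpf, in the same order, were 4672, 494, 647, 176 and 733. Together the 5 genes held 68.1% to 90.2% of the FPKM of the 11 plus-strand protein genes with values. Without mt-co1 the other 4 summed to 2004 ± 231 FPKM in wild-type and 1264 ± 349 in transgenic hearts at 4 mpf, and to 2260 ± 1045 and 1842 ± 600 at 12 mpf (SD, n = 3 each). In the same order, the 6 plus-strand complex I genes summed to 3457 ± 234 and 2237 ± 148 at 4 mpf. At 12 mpf the complex I sums were 2539 ± 920 and 1855 ± 328 (SD, n = 3 each). Neither sum was tested between genotypes. The neighbour pair mt-atp6 and mt-co3, which share a base, stood 1.39 log2 units apart on average (SD 1.23, n = 12). The mean log2 ratio of mt-atp6 over mt-co3 was 0.98 ± 1.58 at 4 mpf and 1.80 ± 0.64 at 12 mpf (SD, n = 6 each). At 4 mpf mt-atp6 was the higher in 4 of 6 libraries, and at 12 mpf in 6 of 6.

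**Figure D4:**
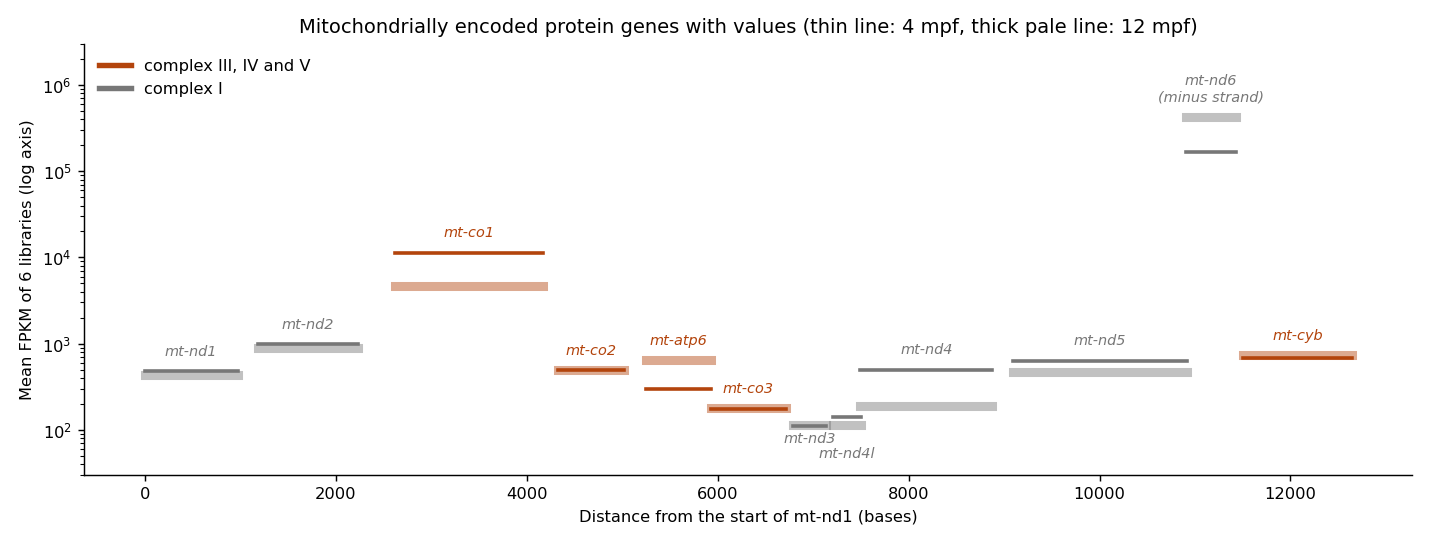
Mean FPKM (log axis) of the 12 mitochondrially encoded protein genes with values, drawn at their length and distance in bases from the start of mt-nd1, for the 6 libraries of 4 mpf (thin lines) and the 6 of 12 mpf (thick pale lines). Among the plus-strand genes mt-co1 is highest at both ages, with means of 11393 and 4672, and mt-nd6 on the minus strand lies above all of them.

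Within groups, the deviations of the 5 genes from their group means were compared over the 12 libraries, with labels permuted within groups (1296 relabellings, 10 pairs). The closest pair was mt-cyb with mt-co2, with Pearson's r = 0.795 (permutation p = 0.0255, adjusted 0.204) and Spearman's rho = 0.811 (permutation p = 0.0177, adjusted 0.0977). Without the 2 libraries farthest from the median of mt-cyb its r was 0.816. Next came mt-co1 with mt-co2, with r = 0.735 (permutation p = 0.0409, adjusted 0.204), rho = 0.706 (permutation p = 0.0293, adjusted 0.0977) and r = 0.596 without the 2 libraries farthest from the median of mt-co1. The other 8 pairs had r from -0.154 to 0.622, and none of the 10 passed after adjustment by r or by rho. Among these 8, mt-co3 with mt-atp6 had r = 0.268 (permutation p = 0.120, adjusted 0.399). Its rho was 0.594 (permutation p = 0.0201, adjusted 0.0977), and its r was 0.736 without the 2 libraries farthest from the median of mt-co3. All values of a library share its scaling.

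By likeness of log2(FPKM + 1) over the 12 libraries, mt-nd2 came closest to the 5 genes among 264 genes with a symbol, with a mean r of 0.481. It was followed by smad9 (0.447), mipa (0.434), faub (0.399) and pappaa (0.356). For deviations from the group means the closest were hgd (mean r 0.474), mea1 (0.461), mt-nd2 (0.431), faub (0.431) and nox1 (0.424). The 5 genes had a mean r of 0.300 among themselves for values and 0.299 for deviations. These are descriptions over 12 libraries that share scaling and depth.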

How the data were processed

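Libraries were made from 12 zebrafish cardiac RNA samples with the QuantSeq 3′ FWD kit, which primes with oligo-dT, and sequenced single-end, per the labels' protocols. The deposited values were FPKM, which the authors computed per gene and library, with no pooling of replicates. Trim Galore, STAR, RSEM, DESeq2 and the build GRCz11 appear in the submitters' processing notes, while the total used for scaling, the versions and the strand setting were not stated there or in the labels. Of 32520 rows, 32120 without values in all libraries were not analysed here, and 0 value columns were unmatched.

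Values were transformed as log2(FPKM + 1), with genes at 1 FPKM or more in 3 libraries kept (all 400). Group means were estimated over the 12 libraries jointly by limma 3.58.1 under R 4.3.3 (4 groups, eBayes with trend and robust), two-sided, Benjamini-Hochberg adjusted over 400 genes, threshold 0.05. The procedure was run on simulated reads with the same spread setting in every library. The real libraries differed in spread by age, so that run does not vouch for the p-values here. Whole reads were recovered from the FPKM values by solving 1 factor per library from the lengths of 12 mitochondrial genes. For genes outside the mitochondrial chromosome, the shortest length up to the gene's span that made its values whole was taken. All 400 genes gave whole reads within 0.0001, which for those genes is how the length was chosen and no check. Their reads, and the rRNA percentages that rest on them, could thus be too low by a common divisor. Recovered reads came to 133852 to 1092280 per library over the 400 genes, which is not the library's depth. Shares were tested by exact permutation within genotype or age with Python 3.11.15, numpy 2.4.6 and pandas 2.3.3.

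The 5 genes and all lists were chosen with earlier results of these data known. The named genes are the 5 themselves, the 5 closest by each measure of likeness, and up to 5 genes with values from each list. Alternatives were other pseudocounts, filters and scalings, array weights, a fit of 6 libraries, limma voom on reads, a replicate block and leaving out libraries.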

Additional observations from a re-analysis of the deposited data

How the results depend on the processing

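Of 445 alternative values of the 5 genes' log2 differences, 414 kept direction and side of the threshold and 28 turned sign. The remaining 3, all of mt-co3, came under the threshold. Part of the 414 could not turn sign, because the other filters, the replicate block and the fit of 6 libraries left the estimates unchanged. Running without a filter repeated the main fit, since the main filter removed no gene. The 414 thus overstates how far the direction was tested. Of 140 alternative values for shares, 117 were kept, 3 came under the threshold and 20 lost it. With 3 libraries a group, the spread between replicates was far above counting error for mt-co1 (38.0% to 91.7% against 1.03% to 2.07%), and mt-co3 rests on as few as 10 reads. The cause was not tested for any change below, except that fits of fewer libraries and permutations of fewer libraries have less power by construction.

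Genes called at 4 mpf between genotypes numbered 8 with pseudocount 10, 0 with the 6 libraries compared alone or with array weights, 21 with limma voom, 26 without both 4 mpf libraries highest in mt-co1 (1 of the 5 genes) and 11 to 37 on leaving out 1 library (0 to 1 of the 5). At 12 mpf they numbered 1 with 6 libraries and 2 with array weights. Over both ages they numbered 8 with pseudocount 0.1, 2 with array weights, 11 without both libraries (1 of the 5) and 3 to 14 without 1 library. For the difference between ages they numbered 0 with pseudocount 0.1, both scalings and the replicate block, 1 with pseudocount 10 and with limma voom, 5 without both libraries and 0 to 15 without 1 library. With age in wild-type hearts they numbered 9 with pseudocount 10, 6 under scaling to nuclear genes, 28 with 6 libraries, 1 with array weights, 49 with limma voom, 6 without both libraries and 4 to 71 without 1 library. In transgenic hearts they numbered 22 with limma voom, 29 without both libraries and 0 to 17 without 1 library.

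Replicate numbers shared between groups gave no sign of pairing: correlations of deviations were -0.411 to 0.0725, and 2 of 12 were highest with their own number. With 3 libraries a group this cannot exclude a pairing. A replicate block called 6 genes with age in transgenic hearts, 0 for the difference between ages and none of the 5 genes in any comparison.

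Under scaling to nuclear genes other than rRNA, mt-cyb was 0.015 between genotypes at 4 mpf, -0.40 with age in wild-type and -0.66 in transgenic hearts, mt-co3 was -0.29 and -0.14 with age, and mt-co2 -0.18 in transgenic hearts. That scaling moved the median of all genes by 0.18 at 4 mpf and -0.11 at 12 mpf between genotypes. Without both 4 mpf libraries, mt-co2 was 0.013 and mt-co3 -0.023 with age in wild-type hearts. Leaving out 1 library gave mt-cyb -0.52 to 0.030 and mt-atp6 -1.21 to 0.23 between genotypes at 4 mpf, and -0.39 to 0.16 and -0.46 to 0.45 at 12 mpf. Over both ages mt-atp6 ranged from -0.61 to 0.11. With age, leaving out 1 library gave mt-cyb -0.25 to 0.30, mt-co2 -0.67 to 0.18 and mt-co3 -0.089 to 0.38 in wild-type, and mt-cyb -0.12 to 0.43, mt-co2 0.18 to 1.0 and mt-co3 -0.18 to 1.73 in transgenic hearts.

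Shares passing between ages numbered 0 to 5 without 1 library and 0 without both, and between genotypes 0 to 1. The log2 ratio of mt-co2 over mt-atp6 was -0.14 to 0.32. The r of mt-cyb with mt-atp6 was -0.0673 under median-of-ratios scaling, and with mt-co3 0.00784 under scaling to nuclear genes.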
